A study of Mus musculus with 16 samples.

Results

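The genes described here make and sulfate chondroitin sulfate, carry it, or bind its partner hyaluronan. They are the matrix proteoglycan gene Vcan (versican), the granule proteoglycan gene Srgn (serglycin), the syndecan genes Sdc1, Sdc3 and Sdc4, the chain-starting enzyme gene Csgalnact2, the chondroitin sulfotransferase genes Chst11, Chst12 and Chst15, and the hyaluronan receptor gene Cd44. They were taken as a named list of 10 genes, out of 10236 genes tested, each through the probe set that the platform annotation gives to that symbol alone. For a gene with several probe sets, the probe set would be chosen by its mean level over all arrays, but each of the 10 genes had exactly 1, so no measured value decided between probe sets. All 10 exceeded the detection filter (a log2 level of 6.83) on all 16 arrays. The list was drawn up when earlier results of these data were known, among them a large difference of Vcan between salt conditions without LPS. That difference is therefore described without a test.

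Proteoglycans are core proteins with long sulfated sugar chains attached to serine residues. Chondroitin sulfate chains are started and lengthened on a linker sugar by enzymes such as the one encoded by Csgalnact2, and sulfotransferases then place sulfate groups at set positions, which changes what the chain binds. Versican forms large aggregates with hyaluronan outside the cell and is known in myeloid cells as a product of activated monocytes and macrophages, while serglycin packs proteases and chemokines inside secretory granules and syndecans span the cell surface.

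The samples are labelled as dendritic cells. They were grown from C57BL/6 marrow with 10 ng/mL GM-CSF, a cytokine that drives marrow cells towards myeloid types, and total RNA of each of 16 cultures was measured on 1 Affymetrix array. The groups, with 4 arrays each, were 450 mOsm/L with LPS, 290 mOsm/L with LPS, 450 mOsm/L without LPS and 290 mOsm/L without LPS. Higher osmolarity was reached by adding NaCl from day 3. On day 7 the cells were collected and plated for a further 6 h, either with 10 ng/mL LPS, a bacterial cell wall component sensed by Tlr4, or without it. Each group holds 1 culture from each of 4 mice, so replicates are separate animals. The sources used here do not give the age or sex of these mice.

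Levels are log2 values after RMA, a method that equalises the arrays' distributions for single probes before these are combined into probe sets. Each level is thus relative to the other arrays, and levels of different probe sets were not set against each other. At the level of probe sets the arrays were not fully equal, with array medians between 6.78 and 6.93. A difference is a log2 difference of group means with limma's standard error, and a gene was called when its Benjamini-Hochberg adjusted p over the 10236 genes was under 0.05. Of the 15 dendritic cell markers with a probe set, the class II genes H2-Aa, H2-Ab1, H2-Eb1 and Cd74 had group means of 12.58 to 13.66. Itgax, Ccr7, Ciita, Irf8, Batf3 and Dpp4 were also above 6.83 in every group, with means of 6.84 to 12.15. Cd209a and Xcr1 were below 6.83 in every group, and Flt3 in 3 of 4 groups. Clec9a was below it in both groups with LPS, and Zbtb46 in the group at 290 mOsm/L without LPS. Macrophage markers were present too, with Csf1r at 12.25 to 13.21 and Marco at 7.74 to 11.73. Of the 12 measured, Cd163 was below 6.83 in every group, and Vsig4 in all but the group at 290 mOsm/L without LPS. These are bulk samples, in which fewer cells of a type and less RNA per cell cannot be told apart.

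The promoters of the 3 members with the largest differences, Vcan, Chst11 and Sdc4, are shown because these genes moved in 3 different ways in the sections that follow. Each window runs from 250 bases before to 50 bases after a RefSeq start in GRCm38.p6, read on the strand of the gene, at chr13:89742463-89742762 (minus strand), chr10:82985247-82985546 (plus strand) and chr2:164443139-164443438 (minus strand). Capitals mark a match, on either strand, to TGGAAA (core of the tonicity element) or ACGTG (core of the hypoxia element).
Vcan: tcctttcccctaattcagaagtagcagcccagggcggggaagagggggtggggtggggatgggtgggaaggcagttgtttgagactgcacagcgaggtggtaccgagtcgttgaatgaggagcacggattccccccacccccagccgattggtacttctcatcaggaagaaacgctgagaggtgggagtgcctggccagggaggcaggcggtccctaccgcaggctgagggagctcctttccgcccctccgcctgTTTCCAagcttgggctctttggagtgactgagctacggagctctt
Chst11: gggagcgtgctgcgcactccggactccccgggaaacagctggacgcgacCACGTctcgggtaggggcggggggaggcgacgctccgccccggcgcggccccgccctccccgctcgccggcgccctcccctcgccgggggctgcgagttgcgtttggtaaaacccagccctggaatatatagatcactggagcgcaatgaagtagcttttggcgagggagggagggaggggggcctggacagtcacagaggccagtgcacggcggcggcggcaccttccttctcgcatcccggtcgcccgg
Sdc4: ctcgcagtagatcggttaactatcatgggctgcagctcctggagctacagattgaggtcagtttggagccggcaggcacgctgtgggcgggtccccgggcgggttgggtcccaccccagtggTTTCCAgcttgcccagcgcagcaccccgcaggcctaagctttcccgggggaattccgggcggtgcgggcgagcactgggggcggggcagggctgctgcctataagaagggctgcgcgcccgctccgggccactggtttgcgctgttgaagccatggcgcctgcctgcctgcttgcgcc
The windows of Vcan and Sdc4 each held 1 match to TGGAAA on the opposite strand, beginning at base 256 and base 123 of the window, and the Chst11 window held 1 match to ACGTG on the opposite strand at base 50. RefSeq gave 13 windows for the 10 genes. TGGAAA was found in 4 of these 13 windows (1 each of Vcan, Sdc4, Srgn and Csgalnact2), against 21.4% of all 32851 promoter windows. ACGTG was found in 3 of 13 (Chst11, Cd44 and Srgn), against 19.6% of all windows. TGANTCA, the AP-1 site, was found in 1 of 13 (Csgalnact2), against 7.81%, and TGACG, part of the cyclic AMP element, in 4 of 13 (Chst15, Csgalnact2, Sdc3 and Srgn), against 20.8%. In Srgn, ACGTG overlaps TGACG. A match is a description of the letters in the window.

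Vcan was low at 290 mOsm without LPS and high in every other group. Its level was 11.81, 11.82, 11.52 and 11.50 at 450 mOsm with LPS and 11.77, 11.69, 11.54 and 11.64 at 290 mOsm with LPS. Without LPS it was 10.25, 9.97, 9.62 and 9.46 at 450 mOsm and 7.00, 7.40, 6.94 and 7.08 at 290 mOsm. The 2 LPS groups overlapped, the 450 mOsm group without LPS stood between them and the 290 mOsm group, and no array of those last 2 groups overlapped another group. LPS raised Vcan by 1.84 ± 0.14 at 450 mOsm, a 3.57-fold rise (limma adjusted p = 9.49e-10), and by 4.56 ± 0.14 at 290 mOsm, a 23.5-fold rise (adjusted p = 2.91e-15), in 4 of 4 mice each time. Both rises are measured from arrays without LPS, the same arrays that gave the salt difference known beforehand. Their p-values are therefore not independent of the choice of Vcan. Without LPS the level at 450 mOsm exceeded that at 290 mOsm by 2.72 ± 0.14, or 6.60-fold, with differences of 2.38 to 3.25 in the 4 mice. With LPS the salt difference was 0.0021 ± 0.14 (adjusted p = 0.993), with a 95% interval of -0.29 to 0.29. The change of the salt difference with LPS, -2.72 ± 0.20, ranked 5 among 10236 genes by size, and is a description for the reason given above.

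The genes whose levels followed Vcan most closely across the 16 arrays were Slc2a6 (Pearson's r = 0.993), Rtp4 (0.992), Nfix (0.986), AA467197 (0.985) and Htra4 (0.982). The 16 arrays share 4 group means and 4 mice, and the correlation of deviations from the group means was lower, from -0.059 for Htra4 to 0.787 for AA467197. With LPS, Slc2a6 averaged 12.50 at 450 mOsm and 12.34 at 290 mOsm, and without LPS 11.37 at 450 mOsm and 10.12 at 290 mOsm.

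Serglycin, the main proteoglycan of myeloid granules, differed little. Srgn was 13.58 to 13.66 at 450 mOsm with LPS, 13.58 to 13.63 at 290 mOsm with LPS, 13.18 to 13.28 at 450 mOsm, and 13.12 to 13.21 at 290 mOsm. These levels are near the top of the scale, whose highest value was 14.32, and differences there can be compressed. LPS raised Srgn by 0.38 ± 0.04 at 450 mOsm (adjusted p = 2.58e-07) and by 0.45 ± 0.04 at 290 mOsm (adjusted p = 2.84e-08), without overlap of the arrays. Salt gave 0.02 ± 0.04 with LPS (95% interval -0.07 to 0.11) and 0.09 ± 0.04 without LPS (-0.01 to 0.18), and neither was called (limma adjusted p = 0.782 and 0.115). The difference without LPS was called after cyclic loess (0.14, adjusted p = 0.00855) and with a trended robust variance (adjusted p = 0.0359).

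The syndecans, which mainly carry heparan sulfate, each had a different pattern. Sdc4, a widely expressed member found at focal adhesions, differed mainly with LPS. Its level was 11.71, 11.63, 11.51 and 11.72 at 450 mOsm with LPS, against 11.66, 11.72, 11.66 and 11.75 at 290 mOsm with LPS. Without LPS it was 8.15, 8.05, 8.13 and 8.33 at 450 mOsm, against 8.66, 8.86, 8.48 and 8.72 at 290 mOsm. The LPS groups overlapped each other and lay far above both groups without LPS, which did not overlap. LPS raised Sdc4 11.1-fold at 450 mOsm (3.48 ± 0.07, adjusted p = 5.38e-17) and 8.09-fold at 290 mOsm (3.02 ± 0.07, adjusted p = 2.08e-16). Salt lowered it by 0.51 ± 0.07 without LPS (adjusted p = 3.22e-05, lower in 4 of 4 mice), while with LPS the difference was -0.05 ± 0.07 (adjusted p = 0.598, 95% interval -0.21 to 0.10). The 2 salt differences themselves differed by 0.46 ± 0.11 (interaction adjusted p = 0.00405).

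Sdc1, known as a marker of plasma cells and epithelia, went the other way on both counts. It measured 9.84, 9.84, 9.98 and 10.12 at 450 mOsm with LPS, and 9.03, 8.91, 9.20 and 9.13 at 290 mOsm with LPS. Without LPS it measured 10.40, 10.32, 10.31 and 10.40 at 450 mOsm, and 9.62, 9.57, 9.64 and 9.75 at 290 mOsm. No pair of groups overlapped, with 450 mOsm highest, followed by 450 mOsm with LPS, 290 mOsm and 290 mOsm with LPS. Salt raised Sdc1 1.83-fold with LPS (0.87 ± 0.07, adjusted p = 3.06e-08) and 1.64-fold without LPS (0.71 ± 0.07, adjusted p = 3.32e-07), in 4 of 4 mice each. LPS lowered it by 0.41 ± 0.07 at 450 mOsm (adjusted p = 3.6e-05) and by 0.57 ± 0.07 at 290 mOsm (adjusted p = 7.08e-07). The interaction was 0.16 ± 0.10 and was not called (adjusted p = 0.291, 95% interval -0.05 to 0.37). For the B cell and plasma cell markers, the log2 of the summed level was 8.44 to 8.67 at 450 mOsm with LPS and 8.68 to 8.85 at 290 mOsm with LPS, and 8.39 to 8.51 at 450 mOsm and 8.50 to 8.72 at 290 mOsm without LPS. Of its 7 measured markers 6 or 7 had a mean below 6.83 in each group.

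Sdc3, known from nervous tissue, differed little, with levels of 11.30 to 11.36 at 450 mOsm with LPS, 11.27 to 11.35 at 290 mOsm with LPS, 11.09 to 11.26 at 450 mOsm and 11.03 to 11.07 at 290 mOsm. LPS raised it by 0.16 ± 0.05 at 450 mOsm (adjusted p = 0.00396) and 0.26 ± 0.05 at 290 mOsm (adjusted p = 4.64e-05), but normalizing the quantiles again left 0.0035 at 450 mOsm (adjusted p = 0.943). The salt difference without LPS, 0.11 ± 0.05, passed narrowly (adjusted p = 0.0496) and did not pass in 22 of 29 alternatives, among them the mouse as a replicate block (adjusted p = 0.0614). With LPS the salt difference was 0.01 ± 0.05 (adjusted p = 0.828, 95% interval -0.08 to 0.11).

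**Figure D1:**
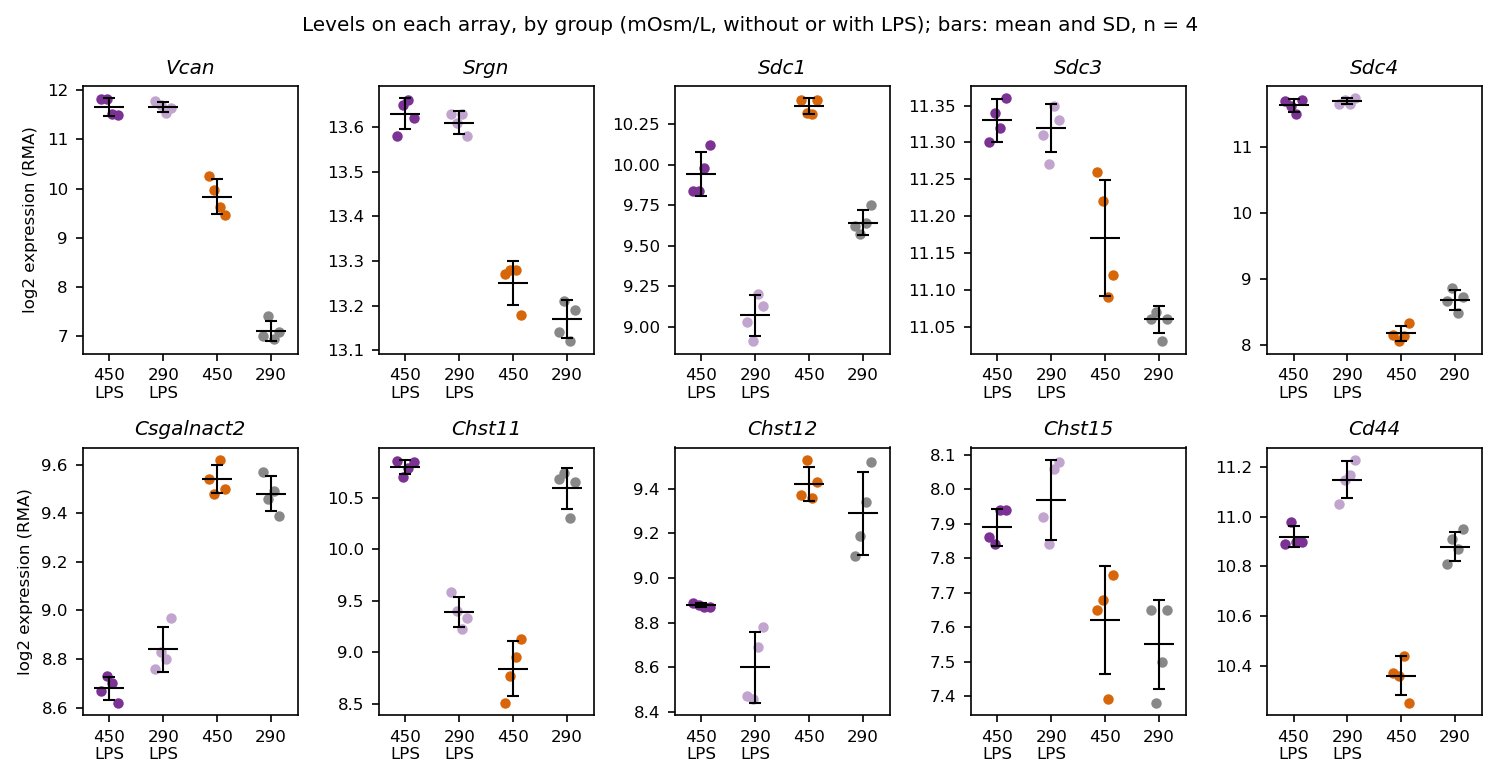
Log2 expression of the 10 genes on each array (vertical axis, its range differing by gene) in the 4 groups (horizontal axis, mOsm/L without or with LPS), with points for arrays and bars for the mean and SD (n = 4). Vcan and Sdc4 sit near 11.7 in both LPS groups, Sdc1 is higher at 450 than at 290 mOsm in both states, and the Chst11 groups with LPS are ordered opposite to those without.

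Of the enzymes, the gene that starts chains was lowered by LPS. Csgalnact2 was 8.62 to 8.73 at 450 mOsm with LPS, 8.76 to 8.97 at 290 mOsm with LPS, 9.48 to 9.62 at 450 mOsm, and 9.39 to 9.57 at 290 mOsm. LPS lowered it by 0.85 ± 0.05 at 450 mOsm (adjusted p = 8.82e-11) and by 0.64 ± 0.05 at 290 mOsm (adjusted p = 5.87e-09), with no overlap. Salt with LPS gave a small fall of 0.16 ± 0.05 (adjusted p = 0.0289), which did not pass in 10 of 29 alternatives, among them cyclic loess (-0.12, adjusted p = 0.075) and the fit without replicate 4 (-0.094, adjusted p = 0.216). Without LPS the salt difference was 0.06 ± 0.05 (adjusted p = 0.387).

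Chst11 encodes an enzyme that sulfates carbon 4 of the N-acetylgalactosamine units of chondroitin, and its response to each stimulus reversed with the other. Its level was 10.85, 10.70, 10.79 and 10.84 at 450 mOsm with LPS and 9.58, 9.40, 9.23 and 9.33 at 290 mOsm with LPS. Without LPS it was 8.51, 8.77, 8.95 and 9.13 at 450 mOsm, against 10.68, 10.74, 10.30 and 10.65 at 290 mOsm. The group with both stimuli and the group with neither overlapped at the top, and the groups with 1 stimulus each stood apart below them. Salt raised Chst11 2.66-fold with LPS (1.41 ± 0.11, adjusted p = 3.17e-08) and lowered it without LPS by 1.75 ± 0.11, or 3.37-fold (adjusted p = 1.83e-09). LPS raised it 3.88-fold at 450 mOsm (1.96 ± 0.11, adjusted p = 2.28e-11) and lowered it at 290 mOsm by 1.21 ± 0.11, or 2.31-fold (adjusted p = 2.19e-08). Each of these directions held in 4 of 4 mice. The salt difference with LPS exceeded that without LPS by 3.16 ± 0.16 (interaction adjusted p = 5.37e-10), with 2.92 to 3.45 in single mice, and this was the second largest interaction of the 10236 genes by size (rank 2).

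**Figure D2:**
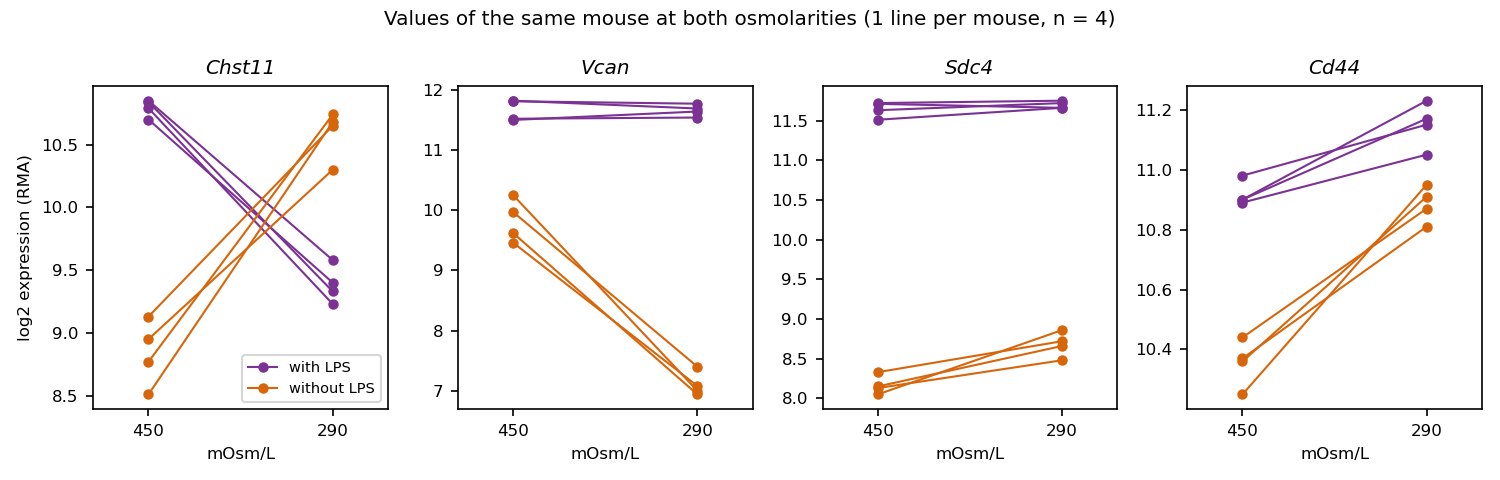
Log2 expression (vertical axis) of Chst11, Vcan, Sdc4 and Cd44 at 450 and 290 mOsm/L (horizontal axis), 1 line per mouse, with LPS in purple and without LPS in orange. The Chst11 lines cross in all 4 mice, the Vcan and Sdc4 lines are nearly flat with LPS and sloped without it, and the Cd44 lines are steeper without LPS.

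The other sulfotransferase genes moved less. Chst12, whose product sulfates the same carbon as that of Chst11, was 8.87 to 8.89 at 450 mOsm with LPS, 8.46 to 8.78 at 290 mOsm with LPS, 9.36 to 9.53 at 450 mOsm, and 9.10 to 9.52 at 290 mOsm. LPS lowered it by 0.55 ± 0.08 at 450 mOsm (adjusted p = 1.03e-05) and 0.69 ± 0.08 at 290 mOsm (adjusted p = 6.19e-07). Salt with LPS raised it by 0.27 ± 0.08 (adjusted p = 0.0144), in 4 of 4 mice, but this did not pass without replicate 1 (0.23, adjusted p = 0.079) or without replicate 2 (0.23, adjusted p = 0.091). Without LPS the salt difference was 0.13 ± 0.08 (adjusted p = 0.197, 95% interval -0.04 to 0.31), and it passed when the replicate 4 array at 290 mOsm was left out (0.21, adjusted p = 0.0392). The interaction of Chst12 was 0.14 ± 0.12 (adjusted p = 0.453), with a 95% interval of -0.11 to 0.39.

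Chst15 encodes the enzyme that adds a further sulfate to units already sulfated at carbon 4. Its levels were 7.84 to 7.94 at 450 mOsm with LPS, 7.84 to 8.08 at 290 mOsm with LPS, 7.39 to 7.75 at 450 mOsm and 7.38 to 7.65 at 290 mOsm. LPS raised Chst15 by 0.27 ± 0.08 at 450 mOsm (adjusted p = 0.00451, and 0.0592 without replicate 3) and by 0.43 ± 0.08 at 290 mOsm (adjusted p = 8.46e-05). Neither salt difference was called, at -0.08 ± 0.08 with LPS (adjusted p = 0.433, 95% interval -0.25 to 0.08) and 0.07 ± 0.08 without LPS (adjusted p = 0.467, interval -0.09 to 0.24).

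Cd44, the receptor through which many leukocytes bind hyaluronan, was lower with salt. Its level was 10.89, 10.98, 10.90 and 10.90 at 450 mOsm with LPS and 11.05, 11.15, 11.17 and 11.23 at 290 mOsm with LPS. Without LPS it was 10.37, 10.36, 10.44 and 10.25 at 450 mOsm and 10.81, 10.91, 10.87 and 10.95 at 290 mOsm. The 450 mOsm group with LPS overlapped the 290 mOsm group without LPS, and the other groups stood apart. Salt lowered Cd44 by 0.23 ± 0.05 with LPS (adjusted p = 0.00197) and by 0.53 ± 0.05 without LPS (adjusted p = 4.25e-07), in 4 of 4 mice each. LPS raised it by 0.56 ± 0.05 at 450 mOsm (adjusted p = 2.12e-08) and by 0.27 ± 0.05 at 290 mOsm (adjusted p = 0.000177), the last of which fell short of the threshold when the quantiles were normalized again (0.11, adjusted p = 0.0733). The salt differences differed from each other by 0.29 ± 0.07 (interaction adjusted p = 0.0083, and 0.0926 without replicate 2).

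Counted over the list, salt with LPS called 5 of the 10 genes, 3 higher (Sdc1, Chst11 and Chst12) and 2 lower (Csgalnact2 and Cd44), against 38.6% of all genes called, 16.8% higher and 21.8% lower. Without replicate 1 or without replicate 2 the count was 3. The same 5 genes were those whose arrays did not overlap between 450 and 290 mOsm with LPS, against 39.4% of all genes. Vcan is left out for salt without LPS, because its difference helped to form the list. Of the other 9 genes, 2 were called higher (Sdc1 and Sdc3) and 3 lower (Chst11, Sdc4 and Cd44). Over all genes 44.3% were called, 20.6% higher and 23.7% lower. The Sdc3 call did not pass in 22 of 29 alternatives. The genes called did not overlap between the osmolarities, against 36.8% of all genes. Vcan is included in the medians that follow. The median difference of the 10 genes was 0.01 with LPS and 0.08 without it, against 0.00153 and 0.00102 over all genes.

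**Figure D3:**
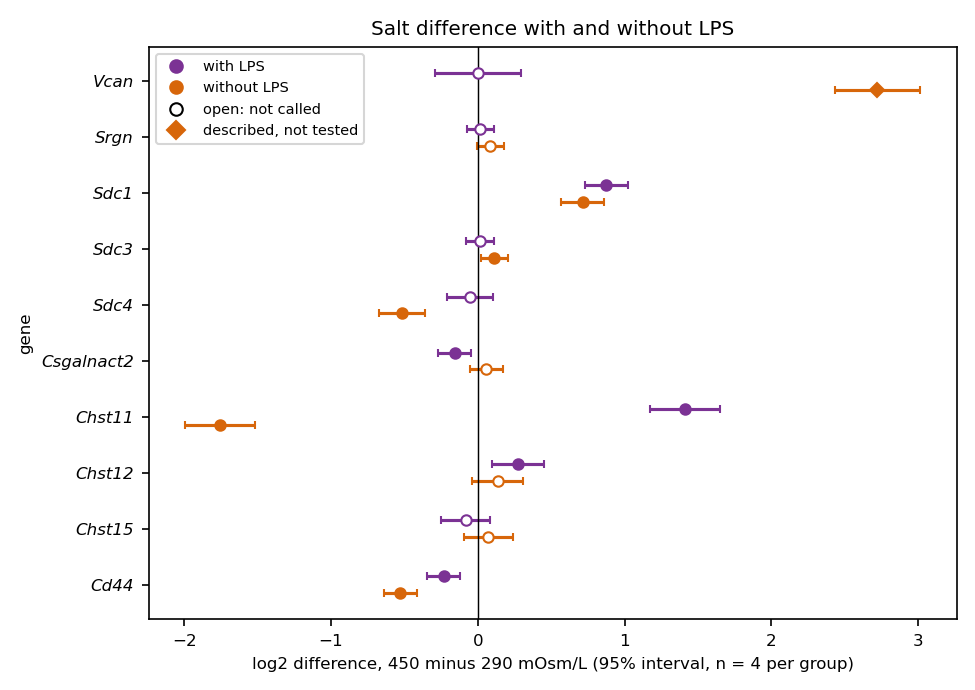
Log2 difference of 450 minus 290 mOsm/L (horizontal axis) for each gene (vertical axis), with LPS in purple and without LPS in orange, and 95% intervals from limma (n = 4 per group). Chst11 is at 1.41 with LPS and -1.75 without LPS, Sdc1 is above 0 in both states, and the diamond is the Vcan difference of 2.72, which was described and not tested.

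LPS called all 10 genes at both osmolarities. At 450 mOsm 7 rose (Vcan, Srgn, Sdc3, Sdc4, Chst11, Chst15 and Cd44) and 3 fell (Sdc1, Csgalnact2 and Chst12), against 71.8% of all genes called, 26.4% higher and 45.3% lower. At 290 mOsm 6 rose and 4 fell, with Chst11 among those that fell, against 73.5% of all genes called, 26.4% higher and 47.1% lower. Without Vcan, LPS gave 6 higher and 3 lower of 9 genes at 450 mOsm and 5 higher and 4 lower at 290 mOsm. In both comparisons the arrays of the 10 genes did not overlap, against 66.2% of all genes at 450 mOsm and 69.1% at 290 mOsm. The median over all genes was -0.09 at 450 mOsm and -0.11 at 290 mOsm, against 0.33 and 0.26 over the 10 genes. Leaving out Vcan, whose interaction is not counted as a test, the interaction called 3 of 9 genes, Chst11, Sdc4 and Cd44, all higher, against 21.1% of all genes, 10.7% higher and 10.4% lower. Comparisons that share a group, such as the 2 LPS responses with the 2 salt responses, are not independent of each other.

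**Figure D4:**
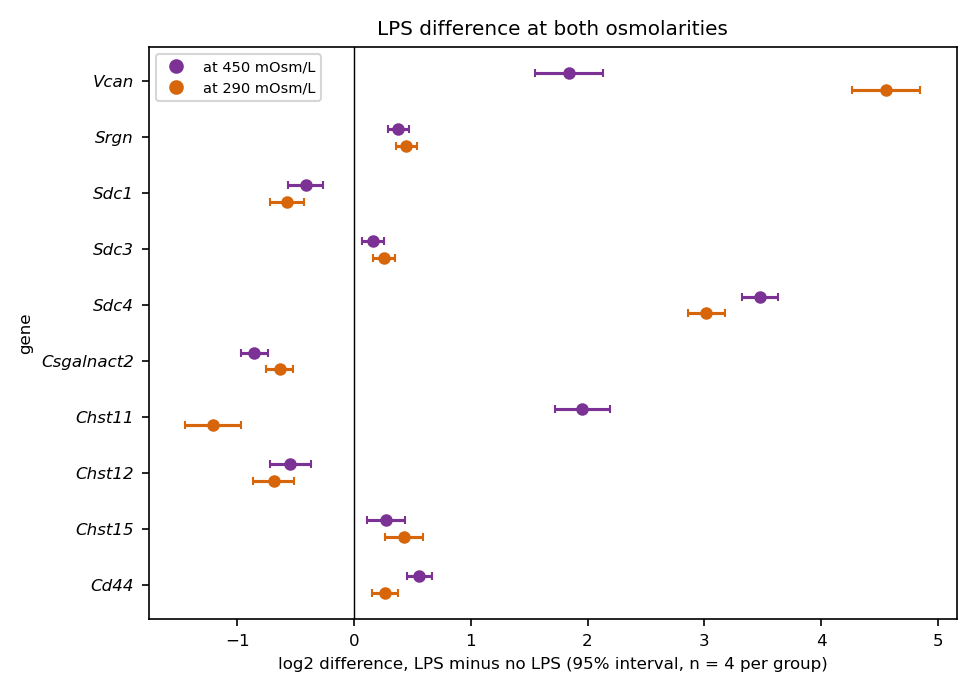
Log2 difference with LPS minus without LPS (horizontal axis) for each gene (vertical axis), at 450 mOsm/L in purple and at 290 mOsm/L in orange, with 95% intervals from limma (n = 4 per group). Sdc4 is at 3.48 and 3.02, Vcan at 1.84 and 4.56, and Chst11 lies at 1.96 and -1.21, on opposite sides of 0.

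For every gene list that follows, the shares over all genes are 26.4% higher and 45.3% lower for LPS at 450 mOsm, 26.4% and 47.1% for LPS at 290 mOsm, 16.8% and 21.8% for salt with LPS, and 20.6% and 23.7% for salt without LPS.

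The remaining genes of chondroitin and dermatan sulfate synthesis were taken from a list of 19, of which 14 passed the filter. Salt with LPS gave 1 higher and 4 lower, and salt without LPS 2 higher and 5 lower, with medians of 0.01 and -0.08. LPS gave 6 higher and 4 lower at 450 mOsm and 5 higher and 6 lower at 290 mOsm, with medians of -0.01 and 0.04, against -0.09 and -0.11 over all genes. Chsy1, a polymerase that lengthens chains, rose with salt without LPS by 0.48 ± 0.07 (adjusted p = 1.64e-05), while with LPS its difference was -0.02 ± 0.07 (adjusted p = 0.811), and the interaction was -0.50 ± 0.09 (adjusted p = 0.000694). LPS lowered Chsy1 by 1.08 ± 0.07 at 450 mOsm and 0.58 ± 0.07 at 290 mOsm. LPS also lowered Xylt1, which attaches the first xylose to the core protein, by 2.06 ± 0.11 at 450 mOsm (adjusted p = 5.06e-12) and 2.16 ± 0.11 at 290 mOsm (adjusted p = 2.98e-12). Its relative Xylt2 rose with LPS by 0.65 ± 0.06 at 450 mOsm (adjusted p = 2.41e-08) and by 0.19 ± 0.06 at 290 mOsm (adjusted p = 0.0101). The epimerase gene Dse, which turns chondroitin into dermatan, fell with salt by 0.34 ± 0.07 with LPS and 0.33 ± 0.07 without LPS, and rose with LPS by 0.61 ± 0.07 at 450 mOsm and 0.62 ± 0.07 at 290 mOsm. Chst14, the sulfotransferase of dermatan, was called in none of the comparisons by limma. Dsel, a second epimerase gene, gave the largest called fall with salt in both states, -0.49 ± 0.08 with LPS and -0.50 ± 0.08 without LPS, with a mean below 6.83 at 450 mOsm without LPS. Xylt2 rose with salt with LPS by 0.28 ± 0.06 (adjusted p = 0.00134), while without LPS its salt difference was -0.17 ± 0.06 (adjusted p = 0.0294), and the interaction was 0.46 ± 0.09 (adjusted p = 0.000847). Csgalnact1, Chst3, Chst7 and Ust did not pass the filter.

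Sulfate reaches these enzymes as a donor made by the synthases of Papss1 and Papss2. With LPS, Papss2 averaged 10.52 at 450 mOsm and 10.81 at 290 mOsm, and without LPS 11.34 at 450 mOsm and 10.52 at 290 mOsm. Salt raised it without LPS by 0.83 ± 0.07 (adjusted p = 4.69e-08) and lowered it with LPS by 0.29 ± 0.07 (adjusted p = 0.00288), and the interaction was -1.12 ± 0.10 (adjusted p = 3.43e-07). The order of these differences is the opposite of that of Chst11, which fell with salt without LPS and rose with LPS. Papss1 rose with salt in both states, by 0.40 ± 0.08 with LPS and 0.25 ± 0.08 without LPS. The transporter gene Slc35b2, which carries the donor into the Golgi, was not called for salt (0.02 ± 0.05 with LPS and 0.05 ± 0.05 without LPS, adjusted p = 0.8 and 0.459). Of the 14 tested genes of sulfate and sugar supply, LPS raised 1 and lowered 9 at 450 mOsm, and raised 2 and lowered 10 at 290 mOsm. The largest rise was that of Uap1, which makes a sugar donor, with 0.39 ± 0.10 at 450 mOsm and 0.40 ± 0.10 at 290 mOsm. The largest fall was that of Papss2 at 450 mOsm (-0.83 ± 0.07) and of the sulfate transporter gene Slc26a11 at 290 mOsm (-1.09 ± 0.09). The Slc26a11 mean at 290 mOsm with LPS was 6.82, just below the filter level. With salt, the largest fall was that of the nucleotide sugar transporter gene Slc35d1 with LPS (-0.39 ± 0.08) and of Slc26a11 without LPS (-0.31 ± 0.09).

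Heparan sulfate is the chain of the syndecans, and 12 genes of its synthesis were tested. LPS raised 2 and lowered 9 at 450 mOsm, and raised 2 and lowered 8 at 290 mOsm, with medians of -0.51 and -0.59. Ext1, a polymerase of the chain, rose by 1.27 ± 0.07 at 450 mOsm (adjusted p = 6.55e-12) and 1.25 ± 0.07 at 290 mOsm (adjusted p = 9.43e-12), and with salt by 0.41 ± 0.07 with LPS and 0.39 ± 0.07 without LPS. For Sulf2, which removes sulfate from finished chains, the LPS difference was -1.79 ± 0.07 at 450 mOsm and -1.73 ± 0.07 at 290 mOsm, and the salt difference with LPS was -0.29 ± 0.07, each the largest called fall of the list. Ndst2, a sulfotransferase gene, had salt differences of 0.16 ± 0.08 with LPS (adjusted p = 0.115) and 0.53 ± 0.08 without LPS (adjusted p = 2.72e-05), and Hs6st1, another, had -0.03 ± 0.06 with LPS (adjusted p = 0.666) and -0.38 ± 0.06 without LPS (adjusted p = 3.25e-05). Among 13 tested genes of chain breakdown, LPS raised 0 and lowered 11 at 450 mOsm and raised 0 and lowered 10 at 290 mOsm in limma, with medians of -0.53 and -0.55. Over all genes 45.3% were lower at 450 mOsm and 47.1% at 290 mOsm, and with cyclic loess the number lower over all genes was 3666 at 450 mOsm and 3737 at 290 mOsm, against 4641 and 4819. Salt gave 2 higher and 6 lower with LPS, against 16.8% and 21.8% of all genes, and 3 higher and 4 lower without LPS, against 20.6% and 23.7%. Salt lowered Galns, which removes sulfate from chondroitin and keratan chains, by 0.63 ± 0.07 with LPS (adjusted p = 1.74e-06) and 0.95 ± 0.07 without LPS (adjusted p = 1.07e-08). It raised Hgsnat, which acts on heparan chains in the lysosome, by 0.98 ± 0.07 with LPS and 0.41 ± 0.07 without LPS. The largest fall with LPS was that of the lysosomal glucuronidase gene Gusb at 450 mOsm (-0.97 ± 0.07) and of the heparan sulfatase gene Sgsh at 290 mOsm (-1.23 ± 0.09).

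Of 19 hyaluronan genes 6 were tested. LPS gave 2 higher and 3 lower at 450 mOsm and 1 higher and 4 lower at 290 mOsm, with medians of -0.45 and -0.65. Salt gave 2 higher and 2 lower with LPS and 0 higher and 2 lower without LPS in limma. Has2, a hyaluronan synthase gene, had group means of 4.90 to 5.07. Cemip2, which encodes a cell-surface hyaluronidase, rose with LPS by 2.06 ± 0.07 at 450 mOsm (adjusted p = 8.99e-15) and 1.78 ± 0.07 at 290 mOsm (adjusted p = 5.76e-14). Layn, another hyaluronan-binding membrane protein, fell with salt by 0.48 ± 0.11 with LPS and 1.02 ± 0.11 without LPS. Hmmr, a hyaluronan-binding protein of dividing cells, had LPS differences of -1.72 ± 0.14 at 450 mOsm and -1.39 ± 0.14 at 290 mOsm, and Hyal2, a hyaluronidase gene, had salt differences of 0.25 ± 0.07 with LPS (adjusted p = 0.00678) and 0.01 ± 0.07 without LPS (adjusted p = 0.954). The Hmmr means with LPS were below 6.83, and so was the Hyal2 mean at 290 mOsm with LPS (6.73).

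Of 37 other proteoglycan genes 11 were tested, and Sdc2 was not among them, with means of 5.07 to 5.21. LPS gave 3 higher and 3 lower at 450 mOsm and 7 higher and 2 lower at 290 mOsm, with medians of 0.06 and 0.13, and salt gave 1 higher and 3 lower with LPS and 4 higher and 5 lower without LPS. Csf1, a growth factor of which one form carries chondroitin sulfate, averaged 9.87 at 450 mOsm and 9.77 at 290 mOsm with LPS, and 7.83 at 450 mOsm and 9.25 at 290 mOsm without LPS. Its salt difference was 0.10 ± 0.09 with LPS (adjusted p = 0.404) and -1.42 ± 0.09 without LPS (adjusted p = 1.6e-09), and LPS raised it at 450 mOsm by 2.03 ± 0.09. Agrn, which encodes agrin, rose with LPS by 1.59 ± 0.07 at 450 mOsm and by 1.76 ± 0.07 at 290 mOsm, where its rise was the largest called. The largest fall with LPS was that of the receptor gene Nrp1, with -0.71 ± 0.07 at 450 mOsm and -0.92 ± 0.07 at 290 mOsm. App rose with salt by 0.14 ± 0.04 with LPS and 0.19 ± 0.04 without LPS. The eosinophil granule gene Prg2 had salt differences of -1.59 ± 0.12 with LPS and -0.70 ± 0.12 without LPS, and its mean exceeded 6.83 at 290 mOsm with LPS alone (7.66). Tgfbr3, a TGF-beta co-receptor, had salt differences of 0.15 ± 0.08 with LPS (adjusted p = 0.118) and 0.56 ± 0.08 without LPS. Its mean exceeded 6.83 at 450 mOsm without LPS alone (7.13). By these means, Prg2 and Tgfbr3 each passed the filter through the group where they were high. The Prg2 salt difference with LPS and the Tgfbr3 salt difference without LPS are therefore descriptions, although the counts above include both genes.

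Proteases that cut versican or shed syndecans and Cd44, with their TIMP inhibitors, gave 11 tested genes. LPS gave 7 higher and 3 lower at 450 mOsm and 6 higher and 3 lower at 290 mOsm, and salt gave 2 higher and 6 lower with LPS and 1 higher and 5 lower without LPS. Over all genes LPS gave 26.4% higher and 45.3% lower at 450 mOsm and 26.4% higher and 47.1% lower at 290 mOsm, and salt 16.8% higher and 21.8% lower with LPS. The versican-cutting protease gene Adamts4 rose with LPS by 0.62 ± 0.11 at 450 mOsm and 0.73 ± 0.11 at 290 mOsm. Its mean exceeded 6.83 at 450 mOsm with LPS alone (6.91, against 6.76 at 290 mOsm with LPS). By these means Adamts4 passed the filter through the group where it was high, so its rise at 450 mOsm is a description. The Adamts4 difference at 290 mOsm lies below the filter level. Adamts1 did not pass the filter. The sheddase gene Adam17 rose with LPS by 0.17 ± 0.06 at 450 mOsm (adjusted p = 0.023) and 0.44 ± 0.06 at 290 mOsm (adjusted p = 4.33e-06), while Adam10, another sheddase gene, fell by 1.47 ± 0.06 and 1.20 ± 0.06. Mmp9, a gelatinase that neutrophils store, had salt differences of -2.12 ± 0.17 with LPS and -2.80 ± 0.17 without LPS, and it is also one of the neutrophil markers. The inhibitor gene Timp1 rose with salt with LPS by 1.16 ± 0.15, while without LPS its salt difference was -0.40 ± 0.15 (adjusted p = 0.0343) at means below 6.83, and the interaction was 1.56 ± 0.21 (adjusted p = 3.15e-05). Timp1 rose with LPS by 4.72 ± 0.15 at 450 mOsm and 3.16 ± 0.15 at 290 mOsm. Without LPS its means were 6.31 at 450 mOsm and 6.72 at 290 mOsm, so it passed the filter through the LPS groups. Its rises with LPS are therefore descriptions, and its interaction rests in part on means below the filter level. Mmp2, a gelatinase, rose with salt by 0.90 ± 0.12 with LPS (adjusted p = 1.06e-05) and 0.98 ± 0.12 without LPS (adjusted p = 4.12e-06). Among 14 tested partners, salt with LPS gave 6 higher and 2 lower, and salt without LPS 4 higher and 2 lower. Tlr2, a receptor for versican, rose with salt by 0.35 ± 0.13 with LPS (adjusted p = 0.0414) and 0.81 ± 0.13 without LPS (adjusted p = 9.22e-05), and with LPS at 290 mOsm by 1.26 ± 0.13. Sdcbp2 rose with salt by 0.49 ± 0.09 with LPS and 0.24 ± 0.09 without LPS. Cask had salt differences of -0.16 ± 0.06 with LPS (adjusted p = 0.0376) and 0.12 ± 0.06 without LPS (adjusted p = 0.112). The actin cross-linker gene Actn1 had salt differences of -0.16 ± 0.06 with LPS and -0.74 ± 0.06 without LPS, and rose with LPS by 0.99 ± 0.06 at 450 mOsm and 0.42 ± 0.06 at 290 mOsm, while Actn4 had LPS differences of -0.41 ± 0.07 at 450 mOsm and -0.67 ± 0.07 at 290 mOsm. Sdcbp, the syndecan adaptor syntenin, was called in none of the comparisons by limma.

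**Figure D5:**
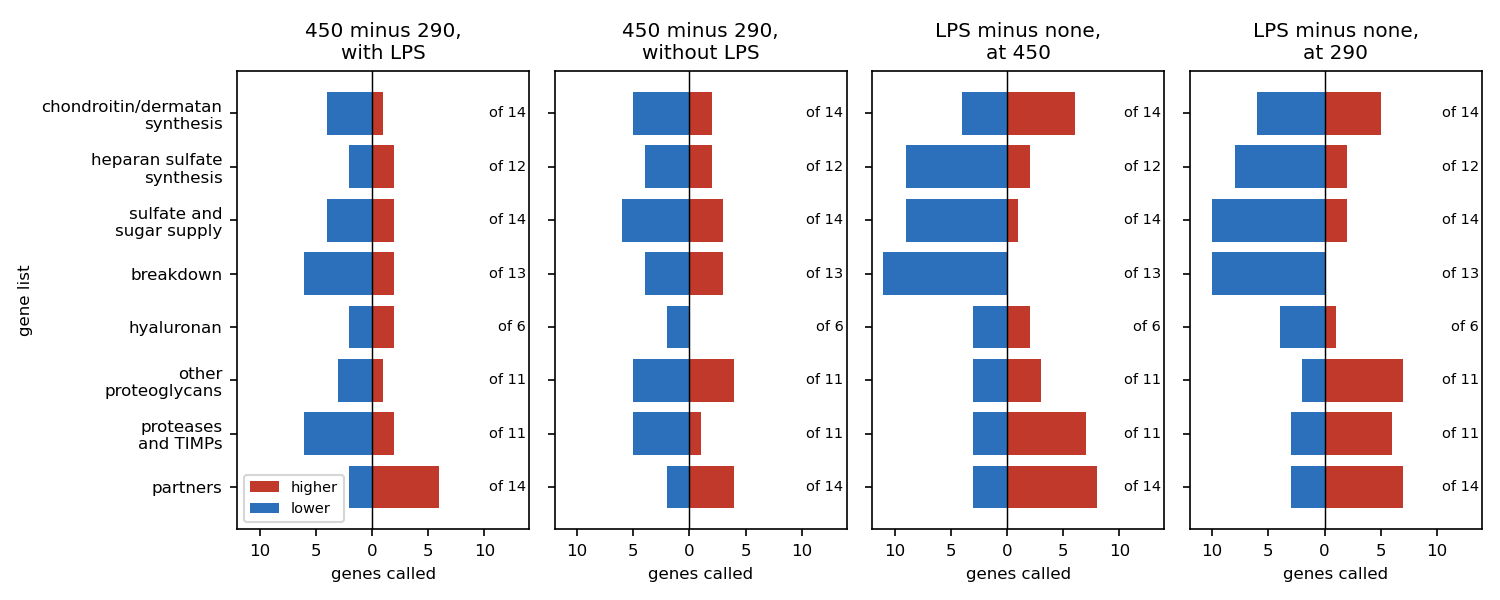
Number of genes called by limma (horizontal axis, higher to the right in red and lower to the left in blue) in 8 gene lists (vertical axis) for the 4 comparisons, with the number tested at the right of each bar. The breakdown list shows 11 genes lower with LPS at 450 mOsm and 10 at 290 mOsm, and 0 higher.

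Markers of other cells moved with salt beside these differences. Of 15 tested neutrophil markers, salt with LPS gave 0 higher and 13 lower, and salt without LPS 0 higher and 14 lower. Over all genes salt gave 16.8% higher and 21.8% lower with LPS, and 20.6% higher and 23.7% lower without LPS. The log2 of the summed level of the 16 measured neutrophil markers was 13.86 to 13.95 at 450 mOsm with LPS and 15.15 to 15.46 at 290 mOsm with LPS, and 12.41 to 12.61 at 450 mOsm and 14.74 to 15.13 at 290 mOsm without LPS. Lcn2 made up most of the sum at 450 mOsm with LPS, with a mean of 13.41. Its salt difference with LPS was -0.16 ± 0.15 (limma adjusted p = 0.419). The mean log2 level of the 16 markers was 7.37 to 7.59 at 450 mOsm with LPS and 9.48 to 9.89 at 290 mOsm with LPS. Without LPS it was 6.74 to 6.89 at 450 mOsm and 9.37 to 9.87 at 290 mOsm. Means below 6.83 were found for 10 of the 16 at 450 mOsm, among them Ly6g and Ltf, and for 9 at 450 mOsm with LPS. At 290 mOsm, with and without LPS, only Ctsg was below 6.83, and Ctsg was not tested. By these means, the tested markers Ltf, Camp, Ly6g, Elane, Mpo, Prtn3, Cxcr2 and Retnlg were below 6.83 in both 450 mOsm groups. They passed the filter through the 290 mOsm groups. The falls of those markers with salt are descriptions, although the counts of lower markers include them. Of the other tested markers, all but Lcn2 and Cebpe were called lower for salt with LPS, and all but Cebpe for salt without LPS. For 5 measured monocyte markers the summed level was 12.53 to 12.77 at 450 mOsm with LPS and 13.24 to 13.49 at 290 mOsm with LPS, and 13.46 to 13.80 at 450 mOsm and 13.50 to 13.59 at 290 mOsm without LPS. Salt with LPS gave 1 of 5 higher and 3 lower, and salt without LPS 1 higher and 2 lower. The 12 macrophage markers summed to 14.92 to 15.04 at 450 mOsm with LPS and 15.29 to 15.35 at 290 mOsm with LPS, and to 15.19 to 15.25 at 450 mOsm and 15.33 to 15.38 at 290 mOsm without LPS. Of 11 tested macrophage markers, salt with LPS gave 0 higher and 8 lower, and salt without LPS 1 higher and 6 lower, in limma. Of 10 markers of mast cells and basophils 5 passed the filter. Salt without LPS lowered those 5, and with LPS 1 was higher and 2 were lower. Without LPS the summed level of the 10 was 9.21 to 9.35 at 450 mOsm and 9.90 to 10.49 at 290 mOsm. Means were below 6.83 for 9 of the 10 at 450 mOsm and for 6 at 290 mOsm without LPS. Cpa3 and Mcpt8 exceeded 6.83 in the 290 mOsm groups alone. They passed the filter through the groups where they were high, so their falls with salt are descriptions. Kit passed it through the LPS groups, so its salt difference without LPS (means of 6.32 and 6.61) lies below the filter level. Hdc averaged 6.57 at 450 mOsm without LPS, and of the 5 only Gata2 was above 6.83 in every group. Stromal cells also make versican. Of 10 stromal markers, Pdgfra, Dcn, Lum, Postn and Cxcl12 had means below 6.83 in every group, Pdgfrb was below it in both groups without LPS, and Col1a1, Col1a2, Col3a1 and Thy1 were above it in every group, with means of 6.86 to 7.48. Salt with LPS gave 0 of 5 tested stromal markers higher and 0 lower in limma, and salt without LPS 5 higher and 0 lower, with a median difference of 0.24. Pdgfrb, among those 5, passed the filter through the LPS groups, so its salt difference without LPS lies below the filter level. Without LPS, untested Postn averaged 5.57 at 450 mOsm and 6.29 at 290 mOsm, while untested Pdgfra, Dcn, Lum and Cxcl12 were higher at 450 mOsm. The log2 summed level of the 10 stromal markers was 10.01 to 10.12 at 450 mOsm with LPS and 9.98 to 10.03 at 290 mOsm with LPS, and 9.82 to 10.08 at 450 mOsm and 9.71 to 9.81 at 290 mOsm without LPS. The part of these shifts in the differences of the 10 genes was not tested.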

How the data were processed

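Expression was measured on 16 Affymetrix arrays, 1 per culture, in 4 groups of 4. The deposited log2 values were produced by the authors through RMA and oligo, per the submitters' processing notes, and no version, filter or build is given there. The table holds 22549 probe sets, of which 20646 have 1 symbol in the platform's annotation, 551 several and 1352 none. Probe sets above 6.83, the overall median, on 4 or more arrays were kept (12097, giving 10236 genes by the highest-mean probe set). Precision is limited by how many arrays there are.

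Group differences were fitted in limma 3.58.1 (R 4.3.3), with 1 mean per group (12 residual and 5.53 prior degrees of freedom), contrasts for salt, LPS and their interaction, two-sided tests and Benjamini-Hochberg adjustment over all genes. The script was tested on simulated data. Figures were drawn with matplotlib 3.10.9.

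The members, gene lists and naming rule (all members, in each list the called gene with the largest rise and fall per comparison and 17 fixed genes, and the 5 genes most like Vcan) were chosen with earlier results of these data known. Promoters are from RefSeq, GRCm38.p6, matched by symbol for 10 of 10 genes.

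The labels give 1 mouse identifier to the arrays of a replicate number in every group, so the numbers pair the samples. Deviations from group means correlated between arrays of 1 mouse with a median r of 0.0953 over 24 pairs, against -0.0351 for different mice. The mouse as a replicate block, other filters, normalizations and variance models, and leaving out each mouse and array, were run as alternatives.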

Additional observations from a re-analysis of the deposited data

Results flagged for a closer look

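For Chst11, Sdc4 and Cd44 the salt difference with LPS differed from that without LPS by limma's interaction test across all genes. The interaction was 3.16 for Chst11, 0.46 for Sdc4 and 0.29 for Cd44. For Vcan it was -2.72, a description only, since it rests on the salt difference without LPS that was known when the list was formed. For Chst11 every mouse moved up with salt with LPS and down without it.

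Within groups, 2 arrays stood apart from the other 3 of their group. The Srgn level of 13.18 in replicate 4 at 450 mOsm was separated by a gap of 0.841 of the group's range, and the Cd44 level of 10.98 in replicate 2 at 450 mOsm with LPS by 0.862 of the range. Chance marks about 1 in 20 groups, and 40 were examined.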

How the results depend on the processing

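Of 50 differences (10 genes in 5 comparisons), 36 kept their direction and side of the threshold under every alternative run, among them all those of Chst11, Sdc1 and Sdc4. The reversals concern differences near 0. Vcan for salt with LPS was -0.031 after median centring and -0.051 to 0.057 when a mouse or an array was left out. Srgn for salt with LPS was -0.069 with quantiles normalized again and -0.016 after median centring. Sdc3 for salt with LPS was -0.019 after median centring and -0.0042 to 0.029 with a mouse or array left out, and Chst15 for salt without LPS ranged from -0.0034 to 0.15 in the same way. The cause was not tested. The number of members called for salt with LPS was 3 to 5 with a mouse or array left out, and the number of genes with an interaction 1383 to 2266, lowest without replicate 2, against 2161. With the mouse as a replicate block, 5 members were called for salt without LPS (Sdc3 was lost), 5 for salt with LPS, 10 for LPS at each osmolarity and 4 for the interaction (Vcan included in these counts), and no other call changed. The interaction of Csgalnact2 (-0.22, adjusted p = 0.0533) passed in 6 of 28 alternatives. The balance of directions depends on the scaling: median centring gave 1343 genes higher and 3047 lower for salt without LPS, against 2104 and 2426, and cyclic loess gave 3860 higher and 3737 lower for LPS at 290 mOsm, against 2702 and 4819, and 3728 and 3666 at 450 mOsm, against 2707 and 4641. Cyclic loess moved the median LPS difference of all genes to 0.0273 at 450 mOsm and 0.0176 at 290 mOsm, against -0.0932 and -0.113. Levels of Srgn near the top of the scale and of genes below 6.83 are where signal limits the size of a difference.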
